A study of Mus musculus with 3 samples.

Results

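The 8 genes Scx, Mkx, Egr2, Tnmd, Kera, Thbs4, Chodl and Ptx4, which are associated with the tendon lineage, were followed through single cells of the bone surface. They were taken by gene symbol from the 32285 genes of the deposited tables, of which 26321 had at least 1 unique molecular identifier (UMI, a counted transcript molecule) in the cells kept, and all 8 had UMIs in each of the 3 libraries. The cells were Alcam+Sca-1- bone-lining cells (BLCs), which line the bone surface, of wild-type (WT) mice, released with collagenase from the femora, tibias and iliac bones and depleted by sorting of cells that carry CD45, Ter119 or CD31. The 3 libraries formed 1 group, replicates 1, 2 and 3, with no treated arm. The labels give neither the age of the mice nor an animal number nor a batch. The comparisons below are therefore between kinds of cells within the same libraries. Differences between whole libraries were fitted apart. The p-values therefore measure how far differences between kinds of cells varied over at most these 3 libraries, and no others. This spread was estimated mostly across genes, so a gene's own variation between libraries entered little.

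Tendon is a collagen-rich tissue that joins muscle to bone, and its cells, tenocytes, arise from progenitors marked by the basic helix-loop-helix transcription factor Scleraxis (Scx). Scx, the homeobox repressor Mohawk (Mkx) and the zinc-finger factors Egr1 and Egr2 drive the genes for tendon collagens and for Tenomodulin (Tnmd), a transmembrane glycoprotein of mature tenocytes. Kera encodes keratocan, a small leucine-rich proteoglycan known from cornea and tendon that takes part in the spacing of collagen fibrils. Thbs4 encodes Thrombospondin 4, a secreted glycoprotein of the matrix of tendon and muscle. Chodl encodes chondrolectin, a transmembrane protein with a C-type lectin domain, and Ptx4 a secreted protein of the pentraxin family. Egr2 also belongs to the immediate-early genes, which respond within minutes to many stimuli, and is needed for myelination by Schwann cells. The study had already described Tnmd, Kera, Chodl and Ptx4 in these same libraries, so results on these 4 genes are not independent evidence.

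After filtering, 2476, 6363 and 9393 cells of replicates 1, 2 and 3 were kept (18232 in all), with a median of 5614, 9704 and 5814 UMIs per cell. Each cell was assigned to the best of 11 gates, a gate being a list of 6 marker genes of 1 cell type that contains none of the 8 genes, and cells without a clear best list (9631 of 18232) stayed ungated. The fibrous-matrix gate (Aspn, Sfrp2, Itgbl1, Mfap4, Col12a1 and Postn) held 176, 96 and 105 cells, the chondrocyte gate 4, 2382 and 2898, the osteoblast gate 49, 393 and 529, the gate of Cxcl12-abundant reticular (CAR) cells 604, 83 and 105, and the fibroblast gate 26, 25 and 24. Replicate 1 stood apart in this make-up, with 4 chondrocyte-gate cells and with more CAR-gate cells than the other libraries, and values without it are given where they change a call. Libraries shared 5, 9 and 28 cell barcodes by pair. In the fibrous-matrix gate Aspn was seen in 87.9%, Itgbl1 in 92.6% and Col12a1 in 96.2% of cells. Postn was seen in 53.9%, Mfap4 in 51.3% and Sfrp2 in 24.3%. Col12a1 was also seen in 83.9% of chondrocyte-gate cells and 37.5% of ungated cells. The median cell of this gate had 0 UMIs of the osteoblast, mural, endothelial, glia and leukocyte lists, and 0, 12.5 and 13.2 UMIs per 10000 of the chondrocyte list, against 231, 521 and 478 in the chondrocyte gate. For the fibroblast list it had 8.85, 11.9 and 11.1 UMIs per 10000, against 52.8, 41.8 and 36.7 in the fibroblast gate, and the part of this carry-over in the levels below was not tested. Of the 1211 cells that scored best in the fibrous-matrix list, 32 lay within 0.1 above the cut and 41 within 0.1 below it.

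Both lineage factors were highest in the fibrous-matrix gate. Scx was measured at 145, 187 and 123 CPM (the UMIs of a gene over all UMIs of the gate and library, scaled as in the usual counts-per-million unit) in replicates 1, 2 and 3 (152 ± 32.8, mean ± SD, n = 3). In every other gate Scx stayed at or below 22.1 CPM, the value of the fibroblast gate in replicate 3, which rests on 2 UMIs (fibroblast gate 13.6 ± 8.10 CPM, n = 3). The 3 fibrous-matrix values lay above those of all other gates, with no overlap. Scx was seen in 34.5 ± 9.92% of fibrous-matrix cells (median 5549, 7137 and 4229 UMIs), or 11.9 ± 4.21% after each cell was thinned to 1000 UMIs. It was seen in 0% of leukocyte-gate cells (median 16797, 19096 and 10989 UMIs), which serve as the background of free RNA. Scx lies on chromosome 15 (76457452 to 76459458, plus strand, build GRCm38), inside the gene Bop1 on the other strand, and Bop1, a ribosome biogenesis gene, was at 16.7 ± 7.55 CPM in the fibrous-matrix gate and 28.0 ± 3.23 CPM in the CAR gate, where Scx was close to 0.

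Mkx was at 163, 136 and 127 CPM in the fibrous-matrix gate (142 ± 18.6, n = 3). Among gates with 3 libraries the next level was that of the CAR gate, at 27.6, 56.3 and 42.2 CPM (42.0 ± 14.3), and the libraries of the gates did not overlap. In the fibroblast gate Mkx was 62.3 CPM in replicate 1 (10 UMIs) but 18.2 and 11.1 CPM in replicates 2 and 3, on 3 UMIs and 1 UMI. The fibroblast gate thus varied more between libraries than the CAR gate. It was seen in 38.2 ± 8.68% of fibrous-matrix cells (10.1 ± 0.852% when thinned), against 0.155% of leukocyte-gate cells. The gene lies on chromosome 18 (6934518 to 7004780, minus strand). AC148004.2, annotated over it on the same strand, was not among the genes counted.

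Egr2 had another distribution. It was at 90.5, 58.8 and 61.3 CPM in the fibrous-matrix gate (70.2 ± 17.6, n = 3), at 80.9, 55.5 and 70.2 CPM in the osteoblast gate, and highest in the glia gate, at 118.7 ± 39.5 CPM. The ranges of these 3 gates overlapped, so no order among them could be given. The chondrocyte gate lay below all of them, at 18.7 and 18.6 CPM in replicates 2 and 3. Egr2 was seen in 22.2 ± 4.01% of fibrous-matrix cells (6.38 ± 1.33% when thinned), against 2.22% of leukocyte-gate cells (0.155% when thinned). The gene lies on chromosome 10 (67535475 to 67542188, plus strand).

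Tnmd, Chodl and Ptx4, which encode proteins of the cell surface or of the matrix, were close to absent outside the fibrous-matrix gate. Tnmd was at 649, 1155 and 970.1 CPM there (925 ± 256, n = 3), and the next of the gates with 3 libraries was the fibroblast gate, at 0, 48.5 and 0 CPM. Chodl was at 294, 410.4 and 346 CPM (350.0 ± 58.5) and Ptx4 at 313, 326 and 269 CPM (303 ± 29.7), with a single UMI of each in the fibroblast gate. For these 3 genes no library of another gate reached the lowest fibrous-matrix library. Tnmd was seen in 56.9 ± 13.02% of fibrous-matrix cells (39.4 ± 9.97% when thinned), Chodl in 33.8 ± 9.04% (18.1 ± 5.61%) and Ptx4 in 36.4 ± 8.62% (16.1 ± 1.58%). In leukocyte-gate cells the shares were 0.285% for Tnmd and 0% for Chodl and Ptx4. Tnmd lies on chromosome X (133850980 to 133865577), Chodl on chromosome 16 (78930948 to 78951733) and Ptx4 on chromosome 17 (25120760 to 25125292), all on the plus strand of GRCm38.

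Of the 8 genes, Kera varied most between the libraries of the gate relative to its mean. It was at 30.2 CPM in replicate 1 and at 219 and 208 CPM in replicates 2 and 3 of the fibrous-matrix gate (152 ± 106, n = 3), and was seen in 15.7 ± 9.64% of these cells (8.43 ± 6.33% when thinned). In replicate 1 the fibroblast gate reached 31.2 CPM on 5 UMIs, so for Kera the ranges of these gates overlapped. In replicates 2 and 3 the fibroblast gate had 0 UMIs of Kera. No UMI of Kera was counted in leukocyte-gate cells. Kera lies on chromosome 10 (97606879 to 97613692, plus strand).

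Thbs4 was at 4322, 4194 and 3156 CPM in the fibrous-matrix gate (3890 ± 640, n = 3), and it was also the gene seen in the most cells overall (7684 of 18232). The fibroblast gate had 850 ± 341 CPM, and the osteoblast gate 1291, 163 and 243 CPM. All 3 fibrous-matrix values lay above the highest of these, while the fibroblast and osteoblast gates overlapped. Thbs4 was seen in 83.7 ± 0.953% of fibrous-matrix cells (70.9 ± 3.37% when thinned), and in 8.06% of leukocyte-gate cells (0.586% when thinned, 10.6 CPM), which sets the level of its background. The gene is on chromosome 13 (92751590 to 92794818, minus strand).

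**Figure D1:**
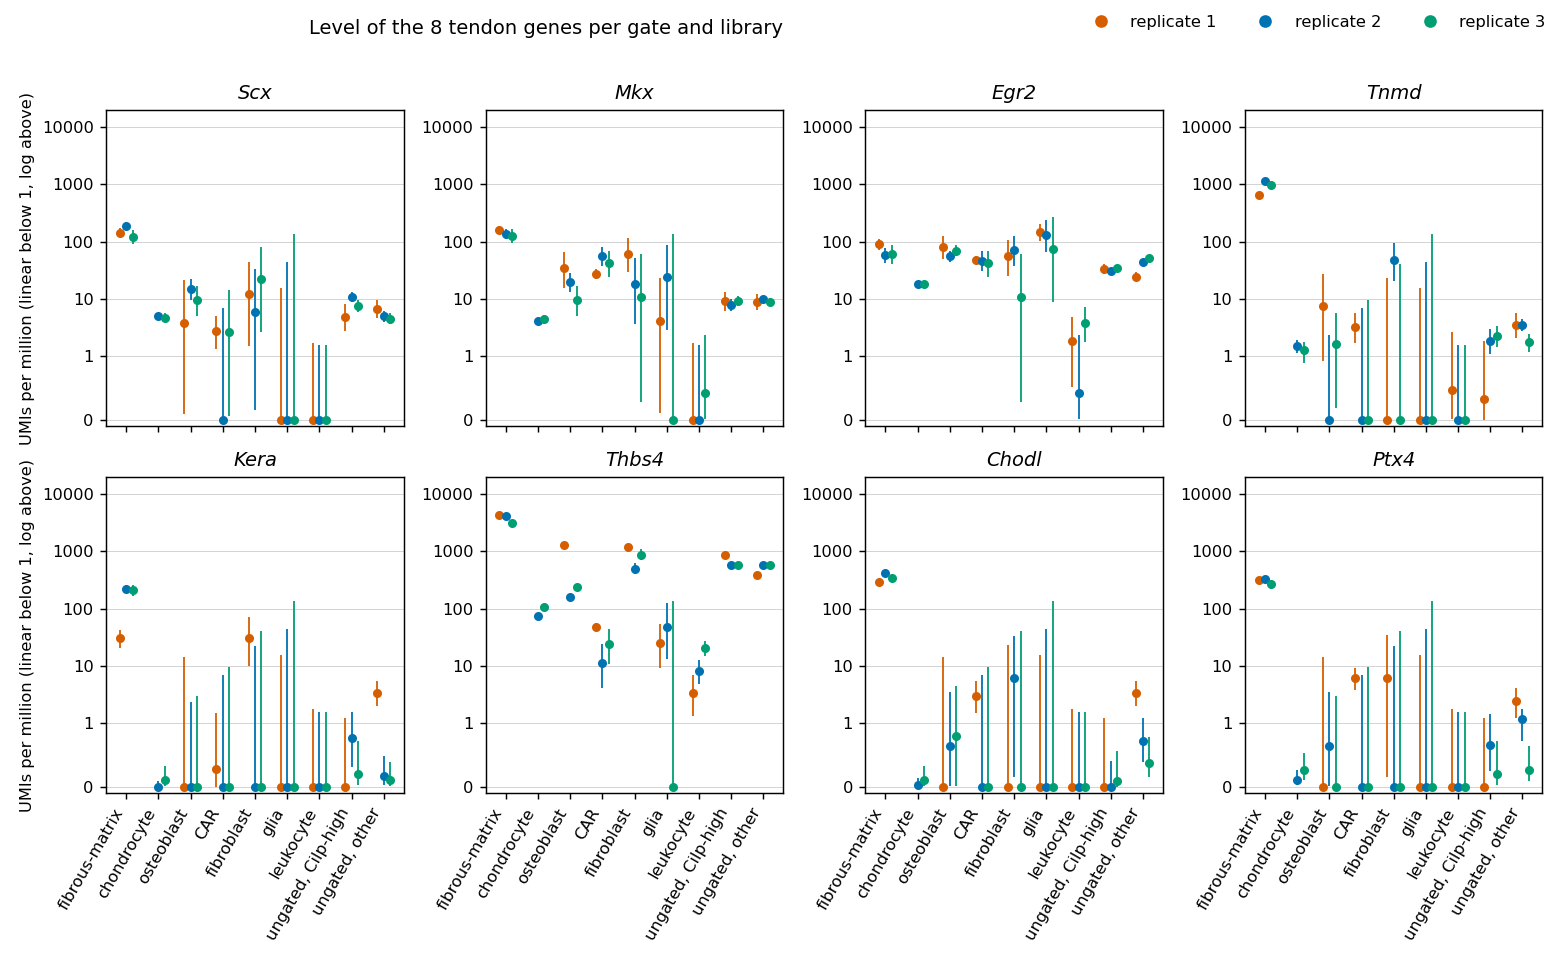
Level of each of the 8 genes in CPM (vertical axis, linear below 1 and logarithmic above) by gate, with 1 point per library and a bar for its exact 95% counting interval. Scx, Mkx, Tnmd, Thbs4, Chodl and Ptx4 have their 3 fibrous-matrix points above those of every other gate, while Kera overlaps with the fibroblast gate (31.2 CPM in replicate 1) and Egr2 with the glia and osteoblast gates.

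The sequences before the start sites of Tnmd, Kera and Chodl are shown because these 3 genes had the narrowest distributions with a promoter entry in the RefSeq table (build GRCm38.p6), which holds 250 bases before to 50 bases after each start. E-boxes, the letters CANNTG that basic helix-loop-helix factors such as Scx can bind, were searched on these windows and are in capitals. CANNTG reads the same on both strands, so 1 search covers both. A match is a description of the letters, not a site of binding.
Tnmd (chrX:133850758-133851057, plus strand): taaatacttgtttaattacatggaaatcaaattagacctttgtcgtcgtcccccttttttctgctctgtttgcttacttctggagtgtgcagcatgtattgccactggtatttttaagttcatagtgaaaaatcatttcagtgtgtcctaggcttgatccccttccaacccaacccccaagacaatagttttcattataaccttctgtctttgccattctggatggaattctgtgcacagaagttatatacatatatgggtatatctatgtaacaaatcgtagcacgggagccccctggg
Kera (chr10:97606955-97607254, plus strand): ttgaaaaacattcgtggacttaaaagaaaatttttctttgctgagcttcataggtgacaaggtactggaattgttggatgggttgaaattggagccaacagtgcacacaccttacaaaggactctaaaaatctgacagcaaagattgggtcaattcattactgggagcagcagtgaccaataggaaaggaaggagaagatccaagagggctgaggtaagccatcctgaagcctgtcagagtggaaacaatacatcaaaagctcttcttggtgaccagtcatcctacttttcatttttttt
Chodl (chr16:78930698-78930997, plus strand): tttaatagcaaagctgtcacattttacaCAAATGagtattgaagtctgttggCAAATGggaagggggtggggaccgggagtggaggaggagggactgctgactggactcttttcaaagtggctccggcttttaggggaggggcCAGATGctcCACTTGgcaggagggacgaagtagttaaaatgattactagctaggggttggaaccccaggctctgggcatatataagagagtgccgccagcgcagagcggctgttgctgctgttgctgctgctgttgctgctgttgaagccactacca
The Chodl window holds 4 matches, CAAATG at -222, CAAATG at -198, CAGATG at -107 and CACTTG at -98 from the start. The Tnmd and Kera windows hold 0. The Kera window (97606955 to 97607254) lies inside the gene as placed above (97606879 to 97613692). Its 0 therefore does not describe the bases before that gene start. Of the 32851 promoters of the table, 72.3% hold at least 1 match, with a median of 1, so the motif is common at this length.

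The question put to the counts was whether the genes differed between the fibrous-matrix gate and 4 other mesenchymal gates. The measure was the spread of these differences over the libraries. UMIs were summed per gate and library and fitted together with edgeR's quasi-likelihood test, with library as a block and Benjamini-Hochberg adjustment over 18242 genes. Replicate 1 gave no chondrocyte sum, since it held 4 such cells where at least 10 were needed. The chondrocyte gate thus entered the fit through replicates 2 and 3 only. Against the chondrocyte gate, all 8 genes were called higher (adjusted p under 0.05), where 12.3% of all genes tested were called higher and 17.3% lower. Against the osteoblast gate 7 of 8 were called higher (7.76% of all genes higher, 8.68% lower), and so were 7 of 8 against the CAR gate (8.41% higher, 9.52% lower) and 7 of 8 against the fibroblast gate (2.83% higher, 1.86% lower). Egr2 was the exception in the last 3 comparisons. Kera passed the filter on low counts (15 UMIs over all sums) only through the fibrous-matrix gate, so its calls and fold changes add no support. The median log2 fold change of the 8 genes was 6.81 against the chondrocyte gate, where that of all genes was -0.28, and 6.63 (-0.06) against the CAR gate and 3.65 (0.19) against the fibroblast gate. Against the osteoblast gate it was 5.91, or 5.16 with Kera at its bound, where all genes had -0.05. Another scaling (RLE in place of TMM) moved the median of all genes to -0.08 against the chondrocyte gate and to 0.09 against the fibroblast gate, and the split of calls to 2775 higher and 2501 lower and to 423 and 408. The main splits were 2246 higher and 3152 lower and 516 and 339. The calls on the 8 genes kept their counts under that scaling. The markers of the gate were chosen with an earlier cluster of the same cells known, so these calls do not stand as evidence from other cells.

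Among the regulators, Scx was higher by 4.50 ± 0.29 (log2 fold change with its SE; adjusted p = 2.72e-50 in edgeR) against the chondrocyte gate, 3.24 ± 0.31 (1.77e-23) against the osteoblast gate, 5.89 ± 0.39 (8.33e-50) against the CAR gate and 3.77 ± 0.50 (8.23e-12) against the fibroblast gate. Mkx was higher by 4.50 ± 0.30 (edgeR adjusted p = 1.30e-49), 2.55 ± 0.29 (3.36e-16), 1.95 ± 0.27 (7.51e-12) and 2.23 ± 0.40 (1.63e-06) in the same order. Each SE was taken as the size of the change over the square root of the edgeR F statistic. That is an approximation, and it can fail where a gate holds few UMIs. The smallest of the Scx changes was thus against osteoblast-gate cells, and the smallest of the Mkx changes against CAR-gate cells. Egr2 was higher against the chondrocyte gate by 1.34 ± 0.28 (edgeR adjusted p = 1.51e-05). Against the osteoblast gate its change was -0.38 ± 0.26 (edgeR adjusted p = 0.387), against the CAR gate 0.63 ± 0.27 (0.0942) and against the fibroblast gate 0.56 ± 0.38 (0.665), none of which passed. Without replicate 2, which left 1 chondrocyte sum, the Egr2 change against the chondrocyte gate was 1.36. The Egr2 call against the osteoblast gate moved with a single library: without replicate 1 the change passed in the other direction (-0.63, edgeR adjusted p = 0.0432).

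Among the matrix and surface genes, Thbs4 was higher by 4.64 ± 0.32 (edgeR adjusted p = 1.58e-44) against the chondrocyte gate, 3.01 ± 0.26 (3.62e-29) against the osteoblast gate, 7.33 ± 0.33 (1.46e-107) against the CAR gate and 2.49 ± 0.26 (9.62e-20) against the fibroblast gate. Tnmd was higher by 8.98 ± 0.39 (edgeR adjusted p = 3.97e-115), 9.01 ± 0.43 (1.17e-92), 8.24 ± 0.38 (1.02e-101) and 5.71 ± 0.39 (1.69e-44) in the same order. In the fibroblast gate the 8 UMIs of Tnmd all came from replicate 2, which gave a ratio of pooled counts of 46.1 (95% interval 23.4 to 107).

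For Kera, Chodl and Ptx4 the other gates held 0 to 22 UMIs each, and where they held 0 to 3 the fitted change depends on the prior count, so the ratio of pooled counts, with an exact interval for counting error only, is given. Kera had 0 UMIs in the osteoblast gate and was at least 134-fold higher in the fibrous-matrix gate, counting 3 UMIs over the gate as the floor. It had 3 UMIs in the chondrocyte gate, a ratio of 2910 (986 to 14193.5), and 1 UMI in the CAR gate. Chodl had 4 UMIs among all chondrocyte-gate cells, a ratio of 5717 (2224 to 21036), 2 UMIs in the osteoblast gate, a ratio of 528 (146 to 4368), 11 in the CAR gate, a ratio of 142 (78.9 to 286), and 1 in the fibroblast gate, a ratio of 143 (25.6 to 5662). Ptx4 had its smallest ratio against the CAR gate, 63.6 (41.7 to 102) on 22 UMIs. It had 11 UMIs in the chondrocyte gate, a ratio of 1862 (1034 to 3748), 1 in the osteoblast gate, a ratio of 946 (169 to 37413), and 1 in the fibroblast gate, a ratio of 128 (22.9 to 5072). The CAR-gate UMIs of Ptx4 and of Chodl all came from replicate 1, with 0 in the other 2 libraries. For each gene they lay in 0.110% of cells as a mean over libraries. The intervals take UMIs as independent, so with so few cells they may be too narrow. All 3 genes were called higher in each of the 4 comparisons (edgeR), where Kera passed the filter on low counts only through the fibrous-matrix gate. Kera against the fibroblast gate was the least stable of them: the change was 3.53 ± 0.53 (edgeR adjusted p = 2.38e-09), 2.18 without replicate 2 (edgeR adjusted p = 0.0929) and 5.31 in DESeq2 (adjusted p = 0.488).

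**Figure D2:**
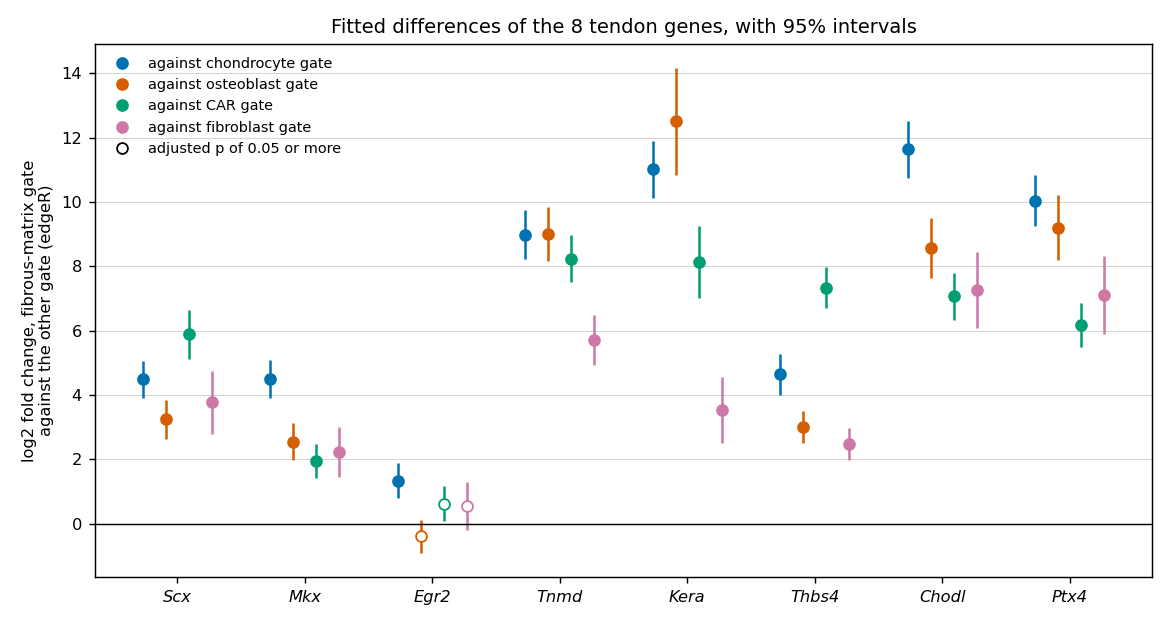
Log2 fold change (vertical axis) of each gene in the fibrous-matrix gate against 4 other gates from the edgeR fit over gate and library sums. Bars give an approximate 95% interval, built from the F statistic of the test. All points lie above 0 but that of Egr2 against the osteoblast gate (-0.38); the point of Kera against the osteoblast gate rests on 0 UMIs in that gate and is no bound.

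The 8 genes also differed in how much of their RNA the gate held. Of all UMIs counted, 93.1% of those of Chodl (757 of 813), 88.3% of Ptx4 (678 of 768), 87.8% of Kera (289 of 329) and 87.3% of Tnmd (1952 of 2236) came from the 377 fibrous-matrix cells. For Chodl these shares were 91.3%, 95.05% and 92.9% by library, and for Ptx4 87.6%, 88.4% and 89.8%. For Kera replicate 1 stood apart, at 56.6% against 94.3% and 93.1%. The gate held 30.4% of the UMIs of Scx, 22.7% of Mkx, 16.8% of Thbs4 and 3.58% of Egr2. It held 2.07% of all cells, and the share of Egr2 lay nearest to this. By library the gate was 7.11%, 1.51% and 1.12% of cells. Replicate 1, where the gate was thus largest and chondrocyte-gate cells were few, stood apart in each of these 4. Its share was 69.6% for Scx (25.4% and 15.6% in replicates 2 and 3), 43.7% for Mkx (17.7% and 12.4%), 44.5% for Thbs4 (14.2% and 6.84%) and 15.2% for Egr2 (2.20% and 1.45%). Without replicate 1 the mean over libraries fell from 36.8% to 20.5% for Scx, from 24.6% to 15.04% for Mkx, from 21.8% to 10.5% for Thbs4 and from 6.27% to 1.82% for Egr2. Most of the remaining Thbs4 (69.2% of its UMIs) and Egr2 (57.3%) lay in ungated cells, which are the most numerous.

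Within the gate the RNA was unevenly held. The 18, 10 and 10 fibrous-matrix cells of replicates 1, 2 and 3 with the most UMIs of Tnmd carried 54.9%, 40.6% and 38.4% of its UMIs. For Scx the same numbers of cells carried 51.8% to 71.5%, and for Kera 75.0% to 100%. The highest counts in a single cell were 65 UMIs of Tnmd, 26 of Scx, 20 of Kera, 30 of Chodl and 265 of Thbs4.

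Co-detection showed whether the genes were found in the same cells of the gate. Tnmd was seen in 40 of 48, 41 of 44 and 26 of 32 cells with a UMI of Scx (85.9 ± 6.37%), against 41.8 ± 11.3% of cells without one. The cells with Scx were the richer in Tnmd in 3 of 3 libraries, and the difference was kept when cells were thinned to 1000 UMIs (63.7% against 36.1%). In cells with Mkx the share with Tnmd was 79.1%, against 44.3% without. Scx and Mkx themselves were less closely tied, with Mkx in 52.7% of cells with Scx and in 30.3% of cells without, and when thinned the difference was seen in the counts of few cells (4 of 16 in replicate 2, 2 of 18 in replicate 1 and 1 of 9 in replicate 3).

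The surface and secreted genes overlapped more. Tnmd was seen in 43 of 46, 42 of 42 and 32 of 33 cells with Chodl (96.8 ± 3.26%). Chodl was seen in 57.3% of cells with Tnmd and in 1.75% of cells without, and Ptx4 in 61.5% and 3.30%. Chodl and Ptx4 were mutual: Chodl was found in 79.7 ± 4.85% of cells with Ptx4 against 7.27 ± 2.05% of the others (39.5% against 13.9% when thinned), and Ptx4 in 86.2% of cells with Chodl against 10.9% of the others. Tnmd was also in 8 of 9, 23 of 23 and 18 of 19 cells with Kera. No fibrous-matrix cell lacking Thbs4 had a UMI of Chodl or Kera. Over all ordered pairs of the 8 genes, 54 of 56 were higher in the cells with the first gene in 3 of 3 libraries (36 of 56 when thinned). The order of a pair cannot change this outcome, so each pair enters the count in both orders. No such share was computed for other genes seen in as many cells. The exceptions were Scx with Egr2 in both orders, higher in 2 of 3 libraries.

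**Figure D3:**
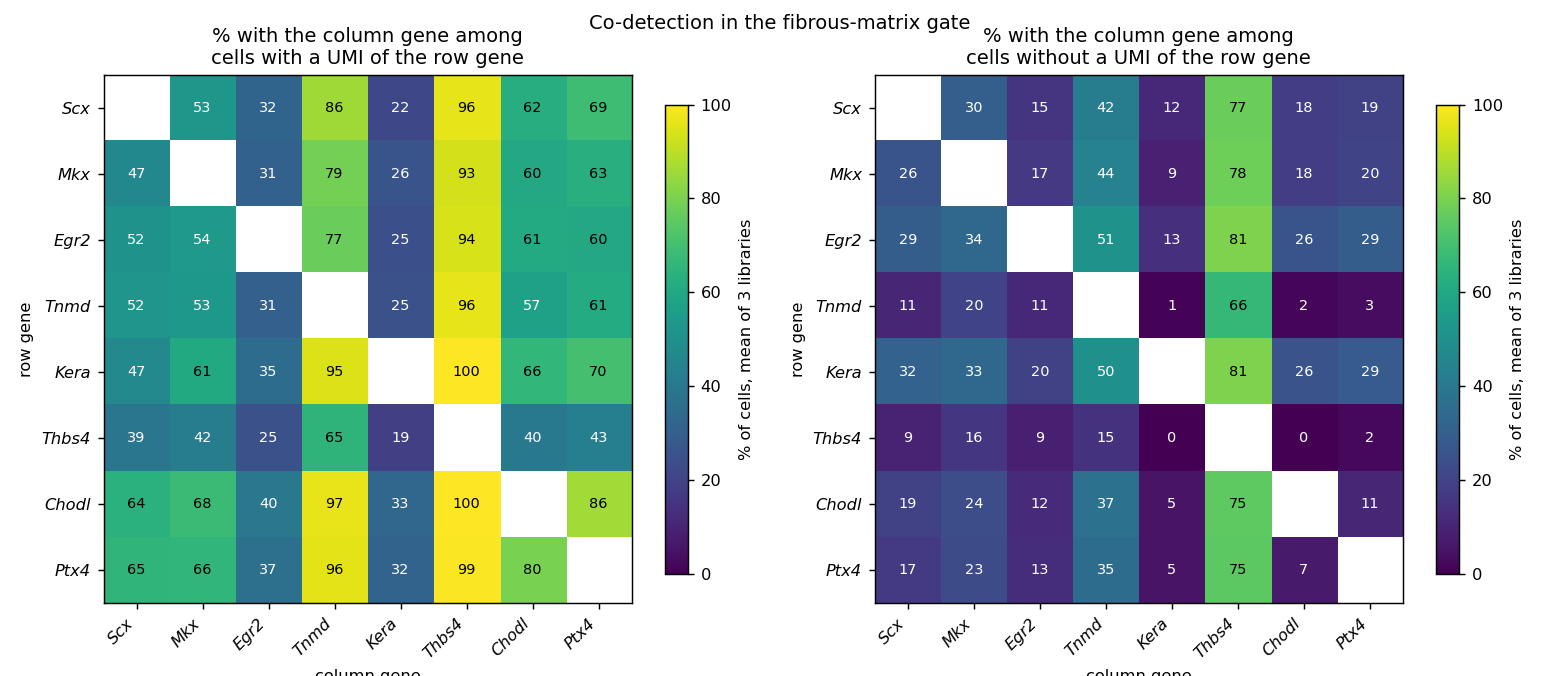
Share of fibrous-matrix cells with a UMI of the second gene (columns) among cells with (left) and without (right) a UMI of the first gene (rows), as the mean over 3 libraries in percent. The row of Chodl reaches 96.8% for Tnmd and 86.2% for Ptx4, and the row of Scx 85.9% for Tnmd and 32.4% for Egr2.

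Counting the genes per cell gave a mean of 2.79, 3.80 and 3.05 of 8 in the fibrous-matrix gate (3.21 ± 0.526, n = 3; 1.81 ± 0.264 when thinned). At least 4 of the 8 were seen in 34.1%, 51.0% and 41.0% of these cells (42.0 ± 8.53%, or 17.9% when thinned). In the fibroblast gate the share was 2.62%, and in leukocyte-gate cells 0%. All 8 were seen together in 1, 5 and 0 cells. With Thbs4 and Egr2 left out, since both are seen in many other cells, 162 cells of the 18232 had at least 3 of the remaining 6 genes, and 148 of them (91.4%) were in the fibrous-matrix gate. By library these were 58 of 64, 49 of 54 and 41 of 44 cells. The other 14 were 11 ungated cells, 2 fibroblast-gate cells and 1 CAR-gate cell.

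**Figure D4:**
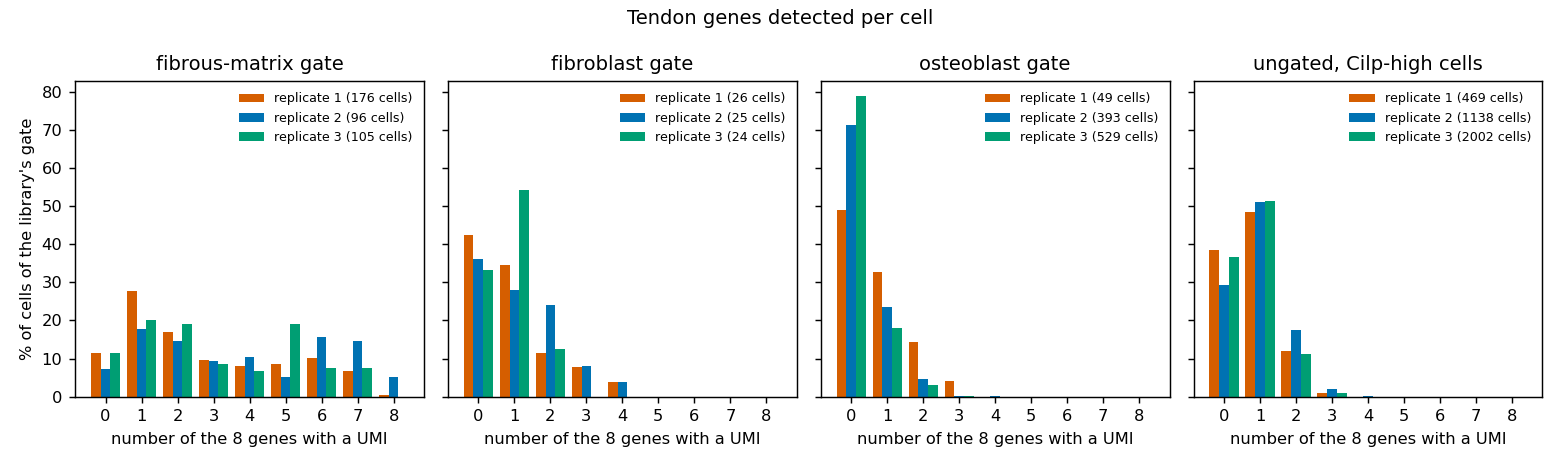
Percent of cells (vertical axis) by the number of the 8 genes with a UMI (horizontal axis) in the fibrous-matrix, fibroblast and osteoblast gates and in ungated cells rich in Cilp, with 1 bar per library. In the fibrous-matrix gate 34.1%, 51.0% and 41.0% of cells carried 4 or more of the genes, while the cells of the other groups lie almost wholly at 0 to 3.

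The gate thus held cells with many and cells with few of the genes. It was divided into 152 member-rich cells (4 or more of the 8 genes; 60, 49 and 43 by library, median 6627, 6940 and 4313 UMIs) and 126 member-poor cells (0 or 1; 69, 24 and 33 cells, median 5291, 6263 and 3614 UMIs). The genes named in this comparison were chosen after their values were seen, and the comparison is a description with no test. Among 9309 other genes with at least 15 UMIs, 8.97% were higher and 8.92% lower in member-rich cells with no overlap of the 3 libraries. The member-rich cells were deeper in each library, and the part of this in the values below was not tested.

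Member-rich cells had more Cilp, a cartilage intermediate layer protein, at 1433, 1746 and 1592 CPM against 301, 183 and 396 CPM in member-poor cells. The proteoglycan Fmod was at 3943, 3552 and 3529 CPM against 1708, 1438 and 2237 CPM, and Ccn2, a matricellular protein of connective tissue, at 4052, 3073 and 3754 CPM against 1169, 1786 and 1849 CPM. Prelp, Lox, which crosslinks collagen, the receptor Tgfbr2, the immediate-early gene Egr3 and Itga8 were higher too, all with no overlap of the libraries. Mfap4, a gate marker, was at 982 against 223 CPM. Of the immediate-early list, 3 of 9 genes were higher without overlap and 0 lower. Egr2, itself an immediate-early gene, is among the genes counted to define member-rich cells. Fibrous-matrix cells with a UMI of Egr2 had a higher summed level of this list than cells without, by a ratio of 1.35 to 1.64. The split is therefore not independent of this list, and the part of Egr2 in these values was not tested.

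Member-poor cells had more Col3a1, at 5014, 4928 and 4681 CPM against 472, 1093 and 1363 CPM in member-rich cells. Lum, the proteoglycan lumican, was at 5166, 3083 and 2485 CPM against 426, 620.2 and 654 CPM, and Comp at 2281, 5388 and 4846 CPM against 1496, 1249 and 1572 CPM. Of the 8 tendon collagens 4 were lower in member-rich cells without overlap (Col3a1, Col5a1, Col5a2 and Col14a1), 0 were higher, and the other 4 overlapped. The receptor Pdgfra, the cartilage factors Sox5 and Sox9 and the osteoblast gene Bglap were also lower in member-rich cells. Markers of other cell types moved with the split. The 6 osteoblast markers summed to 10.1 to 119.8 CPM in member-rich cells and 437.5 to 1792 CPM in member-poor cells, and 3 of the 6 were higher in the latter without overlap. The 6 CAR markers summed to 107 to 174 CPM against 231 to 420.2 CPM, and 3 of the 6 were again higher in member-poor cells without overlap. The sum of the 6 chondrocyte markers was 60.5 to 1817 CPM against 381 to 8046 CPM, with overlap. That of the 6 fibroblast markers was higher in member-rich cells (1423 to 1885 CPM against 713 to 1180.5 CPM). Most of this fibroblast sum was the single gene Igfbp6 (mean 1606 against 941 CPM). Of the 6 fibroblast markers, 2 were higher in member-rich cells without overlap and 0 in member-poor cells. The part of these markers in the values above was not tested.

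**Figure D5:**
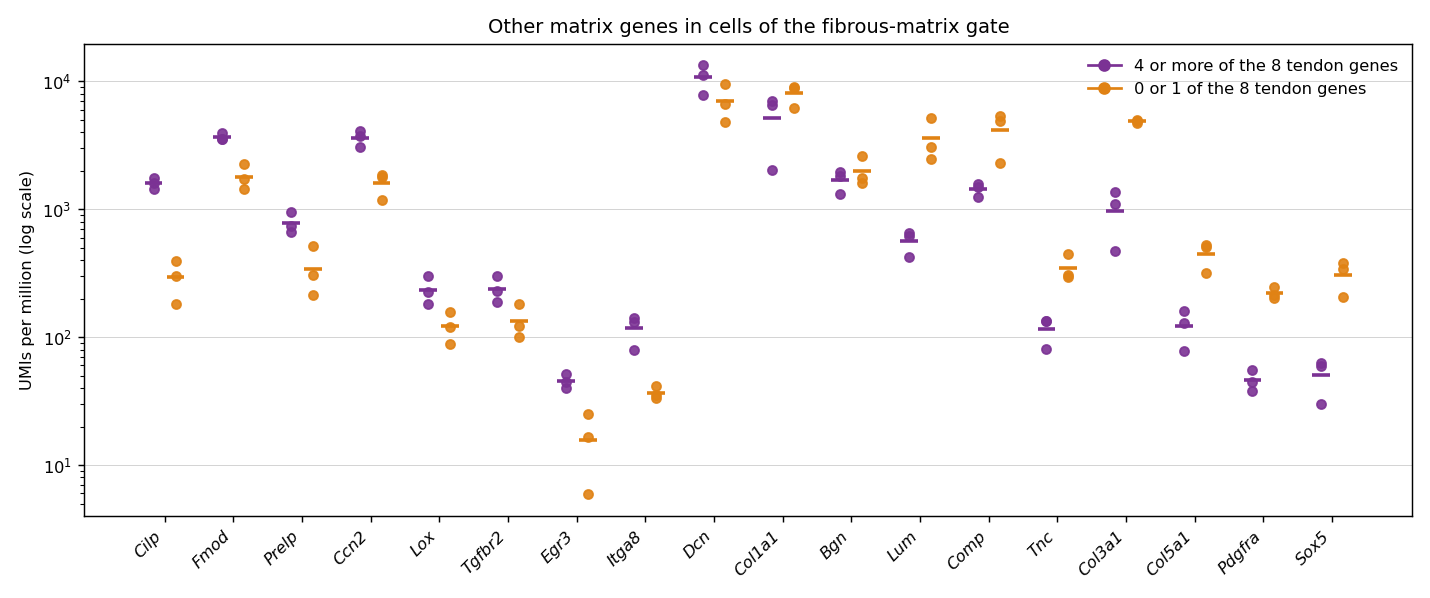
Level in CPM (vertical axis, logarithmic) of genes outside the 8 in fibrous-matrix cells with at least 4 of the 8 genes and in those with 0 or 1, with 1 point per library and a bar at their mean; the genes were chosen after their values were seen. Cilp, Fmod and Ccn2 are higher in the cells with many of the genes, and Col3a1, Lum and Comp in those with few, with no overlap of the 3 libraries.

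Itga8, the integrin subunit on which the study centred, was itself higher in the fibrous-matrix gate, by a log2 fold change of 2.73 to 4.69 across the 4 comparisons. Tnmd was seen in 71.2%, 84.8% and 72% of the fibrous-matrix cells with a UMI of Itga8 (52, 33 and 25 cells), and in 32.3%, 61.9% and 52.5% of those without (124, 63 and 80 cells). The ranges did not overlap (76.0 ± 7.67% against 48.9 ± 15.1%), and after thinning, which left 13, 7 and 8 cells with Itga8, Tnmd was seen in 5, 5 and 4 of them (53.3% against 38.2%, higher in 3 of 3 libraries). Chodl was seen in 55.5% against 24.9%, Ptx4 in 59.1% against 26.5%, Mkx in 57.5% against 30.5% and Scx in 45.8% against 29.7%, each in 3 of 3 libraries. After thinning, Scx (12.1% against 11.9%), Mkx (6.73% against 10.3%) and Ptx4 (24.3% against 15.4%) were higher in 1 of 3 libraries and Chodl in 2 of 3, so with 13, 7 and 8 cells a difference was not detectable for these genes at equal depth. Cells with Itga8 had a median of 6181, 7776 and 4284 UMIs, against 5251, 6931 and 4145 for cells without. A split by Mfap4, the secreted protein the study followed up and 1 of the 6 gate markers, gave Tnmd in 79.2 ± 7.26% of cells with it against 34.9 ± 11.3% without (53.1% and 34.2% when thinned), and Scx in 46.4% against 23.0% (19.1% and 8.85%). Mkx and Thbs4 were likewise higher with Mfap4 in 3 of 3 libraries on all UMIs, as were Egr2 and Chodl, while Kera and Ptx4 were higher in 2 of 3. After thinning, Mkx and Ptx4 were higher in 3 of 3 libraries, Thbs4, Kera (9.09% against 8.43%) and Egr2 (6.54% against 6.50%) in 2 of 3, and Chodl in 1 of 3 (16.4% against 19.7%).

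Egr2 was compared with the immediate-early genes cell by cell. The summed level of Fos, Fosb, Jun, Junb, Atf3, Ier2, Nr4a1, Egr1 and Egr3 was higher in cells with a UMI of Egr2 than in cells without in all 16 pairs of gate and library that could be compared, by a ratio of 1.16 to 2.06. In the fibrous-matrix gate the ratio was 1.35 to 1.64. The summed level of the list was 7339 ± 1776 CPM in the fibrous-matrix gate, 8076 ± 1073 in the osteoblast gate, 10643 ± 1563 in the CAR gate and 5650.5 ± 925 in the chondrocyte gate (n = 2), against 867 ± 101 in leukocyte-gate cells. In the glia gate, where the mean of Egr2 was highest, the sum was 9903 ± 433 CPM (n = 3). The order of gates by this sum was not that of Scx or Mkx. The mean of Egr2 was 45.9 ± 3.31 CPM in the CAR gate and 70.2 ± 17.6 CPM in the fibrous-matrix gate. That difference did not pass in the fit (0.63, edgeR adjusted p = 0.0942), and its cause was not tested. Against the CAR gate, 4 of the 9 genes were called lower in the fibrous-matrix gate and 0 higher (edgeR), and against the osteoblast gate 5 and 0. Against the chondrocyte gate, where Egr2 was called higher, 3 of the 9 were called lower and 0 higher. Against the fibroblast gate the counts were 0 and 0.

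Other genes of tendon matrix and signalling, taken as lists, were less uniform than the 8. Of 8 tendon collagens, 6 were called higher and 0 lower against the chondrocyte gate (median log2 fold change 2.59; all genes -0.28), 8 and 0 against the CAR gate (2.53; -0.06), 4 and 4 against the osteoblast gate (0.02; -0.05) and 2 and 1 against the fibroblast gate (0.03; 0.19). Col3a1 was higher than in chondrocyte-gate cells by 5.96 and Col1a1 by 5.63, while Col1a1 was lower than in osteoblast-gate cells (-3.79). Col6a1 (-0.36) and Col6a2 (-0.58) did not pass against the chondrocyte gate. Of 6 small leucine-rich proteoglycans, the family of Kera, 4, 5, 5 and 3 were called higher against the chondrocyte, osteoblast, CAR and fibroblast gates, and 1, 0, 0 and 1 lower. Ogn was higher by 3.80 and Lum by 2.76 against the chondrocyte gate, Prelp was lower (-0.95), and Bgn did not pass (-0.06). Of the 8 glycoproteins and enzymes of collagen processing, 3, 3, 3 and 2 were called higher and 3, 1, 2 and 1 lower. Lox was higher by 3.31 and Fbn1 by 1.42 against the chondrocyte gate, while Htra3 (-1.48) and Serpinh1 (-1.04) were lower.

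Of 9 signals and regulators of tendon, 5, 5, 4 and 2 were called higher and 2, 1, 2 and 1 lower in the same order of gates. Six2, a homeobox gene, was higher against the chondrocyte gate by 4.21 and Pdgfra, the receptor for platelet-derived growth factor, by 4.16, while Tgfb2 was lower (-2.18), as was Gli1, a target of hedgehog signalling (-1.54). The 8 cartilage genes were all called lower against the chondrocyte gate (median -3.37), where Matn1, a cartilage matrix protein, had 1801 UMIs in the chondrocyte gate and 0 in the fibrous-matrix gate. Comp (-1.02) and Sox6 (-1.19) had the smallest changes. Against the CAR gate 6 of these 8 were called higher and 0 lower, Comp by 2.72 and Sox6 by 2.98.

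Among 14 close relatives of the genes, Thbs2 and Lum were called higher in all 4 comparisons. Cnmd, which encodes chondromodulin, the relative of Tenomodulin, was lower against the chondrocyte gate (-4.26, edgeR adjusted p = 4.63e-39) and higher against the CAR gate (1.50), and did not pass against the osteoblast (-0.56) or fibroblast (0.47) gate. Of the thrombospondins, Thbs2 was higher in all 4 comparisons (5.70, 2.60, 2.99 and 2.59 against the chondrocyte, osteoblast, CAR and fibroblast gates), as Thbs4 was, and Lum, a proteoglycan of the family of Kera, likewise (2.76, 0.82, 4.46 and 1.32). Thbs1 was higher in the last 3 of them (1.08, 1.70 and 1.68) and Thbs3 in the osteoblast and CAR comparisons (1.17 and 2.01) but lower in the first (-1.36). Comp, thrombospondin 5, was lower against the chondrocyte gate (-1.02) and higher against the CAR gate (2.72), and did not pass against the osteoblast (-0.30) or fibroblast (-0.55) gate. Ptx3, the long pentraxin related to Ptx4, was called higher against the osteoblast gate, which held 3 UMIs of it, and lower against the CAR (-5.37) and fibroblast (-3.93) gates. Layn, which like Chodl carries a C-type lectin domain, was lower against the chondrocyte gate (-1.85) and did not pass in the others.

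Of the homeobox relatives of Mkx, Irx5 was higher against the chondrocyte gate (2.36) and lower against the osteoblast gate (-2.63), Irx3 was lower against the osteoblast (-1.05) and CAR (-1.83) gates, and Irx1 passed in none. Tcf15, related to Scx, had 0 UMIs in the fibrous-matrix gate, was called lower against the CAR gate (18 UMIs, edgeR adjusted p = 0.0110) and passed in no other comparison. Egr3 was lower in the first 3 comparisons (-0.93, -1.55 and -0.91), and Egr1 was lower against the CAR gate (-0.77). Over the 14 relatives, 3, 5, 6 and 3 were called higher and 5, 3, 5 and 1 lower against the chondrocyte, osteoblast, CAR and fibroblast gates.

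The genes whose levels were most like those of each member were found over the 14 sums of gate and library, by Pearson correlation of log2(CPM + 1) among 13655 candidates. The sums share libraries and gates and differ in depth, so the values are a description. Tnmd was most like Igsf10 (r = 0.94), Dkk2 (0.94) and Prph (0.93), Chodl most like C1ql3, Gsta3 and Shisal2b (0.96 each), and Ptx4 most like Gas2 (0.98), Gsta3 and C1ql3 (0.96 each). Kera was most like Spock3 and Mstn (0.96 each) and 1700024B18Rik (0.93), and Thbs4 most like 9330159F19Rik and Mbnl2 (0.97 each) and Lum (0.94). Scx was most like Strbp (0.92), Znhit6 (0.89) and Dchs1 (0.89), Mkx most like Cpxm1 (0.93), Pdlim2 (0.93) and Svil (0.92), and Egr2 most like Tmem94 (0.94), Dedd2 (0.93) and Hecw2 (0.92). Among the members, Tnmd and Chodl had r = 0.96 and Chodl and Ptx4 0.94, against 0.52 for Scx and Mkx and 0.22 for Scx and Egr2.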

How the data were processed

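The authors aligned the reads of 3 droplet libraries (3′ kit, version 3.1) to mouse build mm10 and counted UMIs with Cell Ranger (version 7.1.0, submitters' processing notes), and the deposited tables hold these raw UMI counts per gene and cell barcode. Whether intronic reads were counted is not given in the sources used here. From 20307 barcodes, 79, 447 and 299 were dropped for fewer than 200 genes or more than 20% of UMIs from mitochondrial genes. The cells with the highest Scrublet scores, 0.8% per 1000 cells of a library, were removed as doublets (51, 362 and 837), since the automatic threshold marked 42, 1 and 0. This left 18232 cells, fewer than the study's methods state.

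A gate score was the mean over 6 markers of ln(1 + UMIs per 10000), centred over all cells. A cell entered its best gate at a score of at least 0.75 and a margin of at least 0.25. UMIs were summed per gate and library. The 14 sums of at least 10 cells (5 gates) were fitted together with edgeR (version 4.0.16; TMM, quasi-likelihood, library as block, genes of at least 15 UMIs, R 4.3.3), called at an adjusted p of 0.05. Gate markers were not counted among the calls. Same-numbered sums come from the same sorted library, so the numbers pair them. The script was tested on simulated data. Scanpy (version 1.11.5), Python (3.11.15) and DESeq2 (version 1.42.0, an alternative) were also used. Co-detection was computed on all UMIs and on cells thinned to 1000 UMIs, without the shallower cells. Intervals of levels and of pooled ratios (95%, exact) and floors (3 counts) cover counting error only.

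The 8 genes, the gates and the lists were chosen with earlier results of these data known: Aspn, Sfrp2 and Itgbl1 had led a cluster of these cells, and Mfap4 and Postn are genes of the study. The rule allowed naming the 8 genes, their relatives, Itga8, Mfap4, of each list the 2 genes with the largest and the 2 with the smallest change against the chondrocyte gate, and the 3 genes most like each member (at least 100 UMIs). Others are named where the text says that they were chosen after their values were seen. Alternatives were another normalization, filters, gate cuts, no doublet removal, no replicate block, DESeq2, thinning, and each library left out. The study's cluster labels were not used here.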

Additional observations from a re-analysis of the deposited data

Results flagged for a closer look

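Levels in cells that entered no comparison were above those of the leukocyte gate, and are given as means over libraries in CPM. In glia-gate cells Egr2 was at 118.7 ± 39.5 CPM (n = 3, 49 UMIs), against 2.06 ± 1.72 CPM in leukocyte-gate cells. In the mural gate, which had enough cells in replicate 1 only (60 cells), Mkx was at 43.7 CPM (14 UMIs), Egr2 at 81.2 CPM (26 UMIs), Tnmd at 21.9 CPM (7 UMIs) and Thbs4 at 175 CPM (56 UMIs), against 0.143, 2.06, 0.158 and 10.6 CPM in leukocyte-gate cells. Among ungated cells, those with at least 20 UMIs of Cilp per 10000, a split chosen after the data were seen, had 7.79 ± 2.94 CPM of Scx, 8.86 ± 0.798 of Mkx, 33.0 ± 1.48 of Egr2 and 673 ± 165 of Thbs4. The other ungated cells had 5.46 ± 1.19, 9.29 ± 0.515, 40.4 ± 14.1 and 517 ± 111 CPM of the same genes. Scx was at 0 CPM in leukocyte-gate cells.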

How the results depend on the processing

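Of 448 fold changes of the 8 genes under the alternatives, 441 kept their direction and their side of the threshold and none turned. Of the shares of cells 22 of 153 moved by more than the spread between libraries, as did 8 of 72 shares of UMIs, and 12 of 130 other results moved (counts of genes by over 1.5 times). The 7 fold changes that crossed the threshold were Egr2 against each gate, the chondrocyte one in a fit with 1 chondrocyte sum, and Kera against the fibroblast gate. They include Egr2 passing against the CAR gate at a gate score of 1 (0.72, edgeR adjusted p = 0.0412) and without doublet removal (0.71, edgeR adjusted p = 0.0328), and against the fibroblast gate at a score of 1 (2.29, edgeR adjusted p = 0.0117). With a library left out, 7 to 8 of the 8 were called higher against the chondrocyte gate, 7 to 7 against the osteoblast and CAR gates and 6 to 7 against the fibroblast gate. Genes called in all then ranged from 1759 to 5641 (5398 with all libraries) against the chondrocyte gate, 969 to 3693 (2998) against the osteoblast gate, 1587 to 2930 (3271) against the CAR gate and 365 to 679 (855) against the fibroblast gate. The lowest counts were those without replicate 2, and those without replicate 3 were also over 1.5 times below the full counts (2264, 1296, 1870.0 and 532 in the same order). A filter by filterByExpr gave 556 for the fibroblast gate. A fit with no replicate block gave 482 there and changed no call on the 8 genes. The cause of these changes was not tested. Genes per cell had a mean of 2.49 with Mfap4 and Postn left out of the gate, 1.81 after thinning, and 2.92 to 3.42 with a library left out. The share with Tnmd among cells with Itga8 was 65.7% in that gate, 53.3% after thinning and 71.6 to 78.4% with a library left out. Among cells without Itga8 it was 30.4% in that gate and 42.4 to 57.2% with a library left out. The 377 cells of the gate and their depth limit the precision of co-detection.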
